A study of Mus musculus with 6 samples.

Results

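The crystallins are the water-soluble proteins that fill the fibre cells of the eye lens and give it its refractive power. The genes described here were the rows of the deposited count table that carried 1 of 10 symbols, Cryaa, Cryab, Cryba1, Cryba2, Cryba4, Crybb1, Crybb2, Crybb3, Crygs and Crygn, and all 10 were found among 23420 genes. They were measured by RNA sequencing of mouse retina in 6 libraries, 2 per group. Control retinas were untreated, light-exposed retinas were taken 4 days after 1 h of light at 10000 lux, and minocycline retinas had the same light exposure and received minocycline intraperitoneally at 45 mg/kg each day for 4 days. All groups shared the strain, which the labels give as CD1, whereas the paper describes BALB/cJ mice and a higher light intensity. The dosing above is that of the labels. The paper describes minocycline from 1 day before the light, with 2 injections each day for the first 2 days and 1 each day afterwards. The 2 minocycline libraries are called A and B here, since an identical column header leaves them without a replicate number. The groups are described in the paper as biological replicates, and p-values measure the spread between these samples.

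The α crystallins, Cryaa and Cryab, are small heat shock proteins that hold unfolding proteins in solution. The β and γ crystallins form a separate superfamily of compact structural proteins built from Greek key motifs, and in the mouse lens their genes are among the most strongly transcribed. Cryaa and the β and γ crystallins are regarded as lens genes, whereas Cryab is also made in glia, muscle and other tissues and responds to stress. Crystallin transcripts have been described in the retina as well, and the lens is taken away when the retina is dissected.

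The libraries held 15205930 to 22856922 counts, and a gene without a read could have reached 3 counts by chance, which corresponds to 0.131 to 0.213 CPM (counts scaled to a common library size, with TMM factors). Such limits are used for lower bounds of folds. These bounds leave out the spread between samples, the counting error of the higher library and the wider error of a gene that held reads. The 10 rod genes, which mark the main cell type of the retina, were abundant throughout, with a summed level of 61500 and 43700 CPM in the light-exposed replicates and 82500 to 105000 CPM in the other libraries. Light-exposed replicate 1 stood apart in the lens genes, and minocycline A did so to a smaller degree, so that results resting on these libraries are given with and without them. Control 1 held 77778 counts of Xist, and the other libraries 25 to 188. Genes of the Y chromosome summed to 11 counts in control 1 and to 6532 to 12858 counts in the others. Control 1 thus had the pattern of a female and the others that of males, so that sex differs within the controls. The part of sex in the crystallin values was not tested.

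The promoters are shown for Cryaa and Crybb2, the crystallins highest in light-exposed replicate 1 that were at 0 or 1 count in replicate 2, and for Cryba4 and Crybb3, the β crystallins with most counts in replicate 2. Promoters were used for 9 of the 10 members, all but Cryab, which was not searched, from 250 bases before to 50 bases after the RefSeq start, on GRCm38.p6. Cryaa lies on the plus strand (chr17:31677681-31677980), and Cryba4 (chr5:112252469-112252768), Crybb3 (chr5:113081535-113081834) and Crybb2 (chr5:113070068-113070367) lie on the minus strand. The sequences read 5′ to 3′ in the direction of the gene, and capitals mark the core letters TGCTGA of the site of the large Maf factors, which drive crystallin genes in the lens, or its complement TCAGCA.
Cryaa: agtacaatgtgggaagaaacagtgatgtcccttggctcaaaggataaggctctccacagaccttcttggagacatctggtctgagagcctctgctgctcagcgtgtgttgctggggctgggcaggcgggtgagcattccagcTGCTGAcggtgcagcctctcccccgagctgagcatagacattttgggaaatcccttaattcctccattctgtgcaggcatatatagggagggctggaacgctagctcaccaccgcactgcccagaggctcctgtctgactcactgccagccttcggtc
Cryba4: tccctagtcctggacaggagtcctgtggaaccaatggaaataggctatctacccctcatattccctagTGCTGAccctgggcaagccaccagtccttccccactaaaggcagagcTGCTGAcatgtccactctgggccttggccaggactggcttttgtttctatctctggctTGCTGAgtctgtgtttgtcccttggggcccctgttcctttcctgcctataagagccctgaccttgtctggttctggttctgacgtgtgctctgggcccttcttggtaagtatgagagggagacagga
Crybb3: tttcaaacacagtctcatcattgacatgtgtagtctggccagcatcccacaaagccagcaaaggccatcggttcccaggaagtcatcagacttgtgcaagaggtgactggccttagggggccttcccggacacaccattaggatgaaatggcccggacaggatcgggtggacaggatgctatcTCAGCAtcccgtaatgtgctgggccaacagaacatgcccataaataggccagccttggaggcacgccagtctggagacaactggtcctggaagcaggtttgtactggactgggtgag
Crybb2: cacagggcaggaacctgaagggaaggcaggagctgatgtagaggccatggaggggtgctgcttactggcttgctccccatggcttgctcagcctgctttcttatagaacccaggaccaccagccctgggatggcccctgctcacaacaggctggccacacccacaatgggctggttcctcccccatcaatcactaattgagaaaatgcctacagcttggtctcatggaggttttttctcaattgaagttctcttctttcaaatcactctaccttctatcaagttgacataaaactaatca
The Maf letters were present in 8 of the 9 promoters, all but that of Crybb2, and in 19.5% of all 32544 promoters of this length. The promoter of Cryba4 held 3 copies and those of Cryaa and Crybb3 held 1 each. A TATA box, written TATAAA, was found in Cryba2, Crybb1, Cryba1 and Crygs and in 13.6% of all promoters. The heat shock element, written GAANNTTC or TTCNNGAA, was found only in Cryba1 among the 9, and in 15.1% of all promoters. Both strands were searched, the 3 motifs do not share bases in these 9 promoters, and a match describes the letters only.

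Cryaa, which encodes αA-crystallin, spans bases 31677807 to 31681733 of chromosome 17 (GRCm38). Its controls held 1 and 2 counts, against 1863 and 1 counts in light-exposed replicates 1 and 2, and 237 and 20 counts in minocycline A and B. The level was thus high in 1 light-exposed library, at 109 CPM, and at the limit in the other, and it was 10.3 and 1.06 CPM in minocycline A and B. The light-exposed replicates lay on both sides of every minocycline library. With the controls at their limit of 3 counts per library, Cryaa was at least 510-fold higher in light-exposed replicate 1, at least 48.4-fold higher in minocycline A and at least 4.97-fold higher in minocycline B.

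The β crystallins Crybb2 and Cryba1 followed the same order of libraries. Crybb2 (chromosome 5, 113058258 to 113070117), a major β-crystallin of the adult lens, held 2 and 0 counts in the controls, 811 and 0 counts in light-exposed replicates 1 and 2, and 106 and 11 counts in minocycline A and B. Cryba1 (chromosome 11, 77718615 to 77725283) held 0 counts in both controls, 396 and 0 counts in the light-exposed replicates, and 37 and 3 counts in minocycline A and B. Both were thus undetected in light-exposed replicate 2, which allows up to 0.142 CPM there, beside 47.4 CPM for Crybb2 and 23.1 CPM for Cryba1 in light-exposed replicate 1. Cryba1 overlaps Nufip2 on the opposite strand, and use of the strand in counting is not given in the sources used here. Nufip2 held 4880 to 6198 counts in all libraries, including the 3 in which Cryba1 was at 0.

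Cryba2 and Crygs were lower but had the same pattern. Cryba2 (chromosome 1, 74889934 to 74893143) held 0 and 2 counts in the controls, 118 and 1 after light, and 26 and 1 with minocycline. Crygs (chromosome 16, 22805203 to 22811577), the γ-crystallin that continues to be made in the adult lens, held 0 and 0 counts in the controls, 202 and 2 after light, and 29 and 1 with minocycline. In each pair the first value is replicate 1 or minocycline A. Only light-exposed replicate 1 and minocycline A exceeded 3 counts.

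Crybb1 and Cryba4 lie head to head on chromosome 5, with 3297 bases between their annotated starts, and had counts in more libraries. Crybb1 (112255815 to 112269585) held 7 and 1 counts in the controls, 72 and 8 counts in light-exposed replicates 1 and 2, and 15 and 8 counts in minocycline A and B. Cryba4 (112246493 to 112252518) held 0 and 2 counts in the controls, 144 and 20 counts in the light-exposed replicates, and 36 and 5 counts in minocycline A and B. Both light-exposed replicates of Cryba4 lay above both controls, and replicate 2 lay between the minocycline libraries. For Crybb1, light-exposed replicate 2 was at 0.38 CPM, below control 1 at 0.498 CPM.

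Crybb3 (chromosome 5, 113075839 to 113081584), a basic β-crystallin, was present in every library. Its controls held 10 and 14 counts, against 77 and 50 counts in light-exposed replicates 1 and 2, and 20 and 12 counts in minocycline A and B. Both light-exposed replicates lay above the other 4 libraries, and the controls and minocycline libraries overlapped. Its neighbour Crybb2, 5722 bases away on the same strand, held 0 counts in light-exposed replicate 2, where Crybb3 held 50.

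Cryab (chromosome 9, 50751325 to 50756636), which encodes αB-crystallin, was the most abundant crystallin per length in every library except light-exposed replicate 1, where Cryaa exceeded it. Its controls held 409 and 282 counts, against 1205 and 1768 counts in light-exposed replicates 1 and 2, and 887 and 832 counts in minocycline A and B. These are levels of 29.1 and 19.9 CPM, of 70.4 and 83.9 CPM, and of 38.6 and 44.1 CPM. The 3 groups did not overlap, with light-exposed retinas highest and controls lowest, and light-exposed replicate 2, where Cryaa held 1 count, was the highest library. Cryab overlaps Hspb2, a further small heat shock gene, on the opposite strand, and Hspb2 held 1 to 12 counts. Crygn (chromosome 5, 24751003 to 24758008), which has features of both β and γ crystallins, held 0 to 4 counts per library and could not be compared at this depth.

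**Figure D1:**
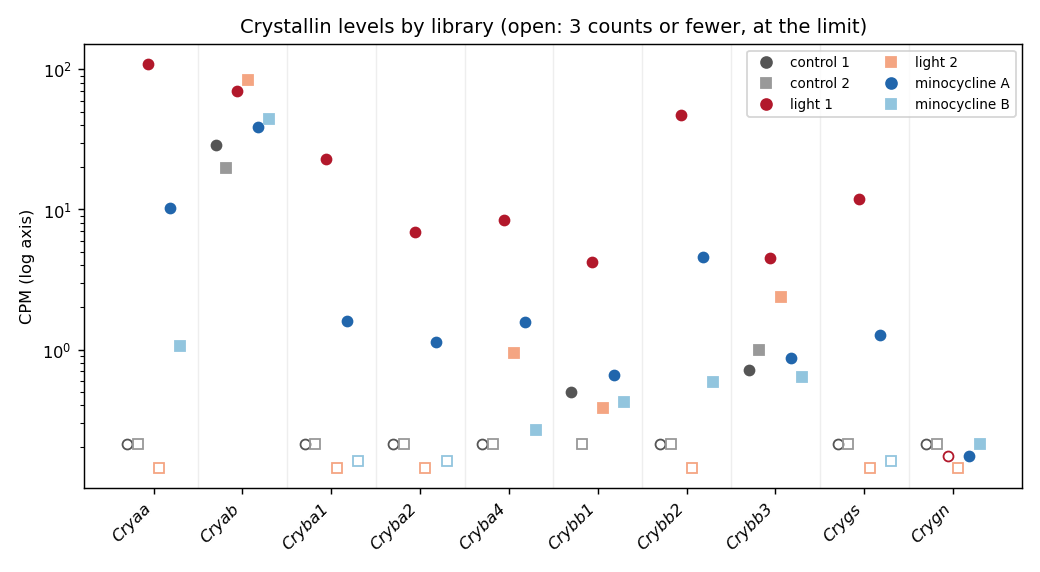
Level of each crystallin in CPM on a log axis, with 1 point per library; open symbols mark 3 counts or fewer and stand at the limit of that library. Cryaa, Cryba1, Cryba2, Crybb2 and Crygs are high in light-exposed replicate 1, lower in minocycline A and at the limit in the controls and light-exposed replicate 2, whereas Cryab is between 19.9 and 83.9 CPM in every library.

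Compared per length (RPKM, the CPM divided by exon length in kilobases), the order of the levels in light-exposed replicate 1 was Cryaa at 52.4 RPKM, Cryab at 47.6 RPKM, Crybb2 at 23.5 RPKM, Cryba1 at 14.5 RPKM and Crygs at 13.5 RPKM. Cryba4, Cryba2, Crybb1 and Crybb3 followed at 10.0, 5.78, 4.27 and 1.93 RPKM. In light-exposed replicate 2, Cryab was at 56.8 RPKM, Cryba4 at 1.13 RPKM and Crybb3 at 1.02 RPKM, and the remaining members lay at or below 0.386 RPKM. In the controls Cryab was at 19.7 and 13.4 RPKM and no other member exceeded 0.505 RPKM. Single libraries give these orders, so that neighbours such as Cryba1 and Crygs cannot be separated by a spread between replicates.

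Of the 10 members, 8 had their highest level in light-exposed replicate 1, Cryab in light-exposed replicate 2 and Crygn in minocycline B. Over the 16367 genes with at least 10 counts in all, 7.97% were highest in light-exposed replicate 1. Set against the other light-exposed replicate, 7 of the 9 members with at least 10 counts in either library were at least 4-fold higher in replicate 1, with counts under 3 raised to 3. This was true of 0.214% of all genes, 32 of 14986, and 0 members were 4-fold higher in replicate 2. The 32 genes comprised the 7 members, 3 further γ crystallins, 3 lens genes (Bfsp1, Lgsn and Grifin) and 19 genes of neither lens list. These 19 included 6 genes of striated muscle, Myh1, Myh2, Myh3, Myh15, Mybpc1 and Mb, with 10 to 33 counts in light-exposed replicate 1 and 1 to 4 counts in replicate 2. A list of 12 striated muscle genes, chosen after these values were seen, summed to 21.8 CPM in light-exposed replicate 1, 10.6 CPM in replicate 2, 9.03 and 12 CPM in the controls, and 14.9 and 105 CPM in minocycline A and B. Light-exposed replicate 1 was thus above the other light-exposed library and the controls in this list, and minocycline B was highest. The part of muscle in the crystallin values was not tested, Cryab being a gene that muscle also makes. Within the minocycline group, 6 of the 9 members were at least 4-fold higher in A than in B, beside 0.256% of all genes. Of the 10 members, 2 had at least 10 counts in either control, and neither differed by 4-fold between the controls.

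Other genes of the lens were read beside the members. The γ crystallins Crygb, Crygc and Crygd, products of lens fibre cells, held 80, 64 and 34 counts in light-exposed replicate 1 and 15, 15 and 14 counts in minocycline A. They held 0 counts in the other 4 libraries. Cryga, Cryge and Crygf held 3 counts or fewer everywhere, and reads of these closely similar genes may be split between them. A list of 13 lens fibre and lens epithelium genes was less uniform, with a summed level of 20.4 CPM in light-exposed replicate 1, 13.0 CPM in minocycline A and 11.7 to 17.4 CPM in the other libraries.

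Within this list, Mip, the water channel of the fibre cell membrane, held 9 counts in light-exposed replicate 1 and 0 in each other library. Lim2, a further membrane protein of lens fibres, held 7 counts there, 2 in minocycline A, 1 in minocycline B and 0 elsewhere. Bfsp1, the beaded filament protein filensin, held 23 counts in light-exposed replicate 1, 5 in minocycline A and 1 to 3 in the others. Lgsn held 22 counts and Grifin 18 counts in light-exposed replicate 1, and both held 0 to 5 counts in the others. Bfsp2 and Lenep supplied most of the summed level and did not follow this order, Bfsp2 being highest in minocycline B with 149 counts and Lenep holding 148 to 234 counts in all libraries. Dnase2b and Foxe3 were at 0 in every library, Gja3 held 0 to 4 counts, Birc7 0 to 2, and Lctl 3 counts in light-exposed replicate 1 alone.

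**Figure D2:**
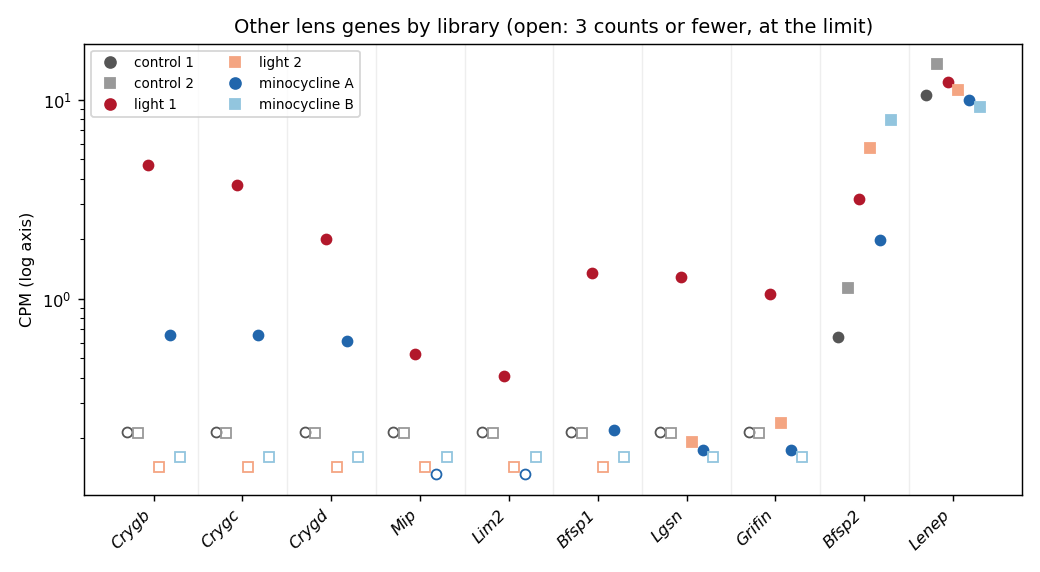
Level of γ crystallins and other lens genes in CPM on a log axis, with 1 point per library; open symbols mark 3 counts or fewer and stand at the limit of that library. Crygb to Grifin are highest in light-exposed replicate 1, whereas Bfsp2 is highest in minocycline B and Lenep, from 9.17 CPM upwards, varies little.

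How far the lens genes kept their proportions between the libraries that held them was read from the ratio of their CPM in light-exposed replicate 1 to that in minocycline A, with exact 95% intervals that cover counting error only. The ratio was 10.5 (9.21 to 12.1) for Cryaa, 10.3 (8.38 to 12.7) for Crybb2, 9.35 (6.31 to 14.3) for Crygs and 14.4 (10.2 to 20.7) for Cryba1. It was lower for Cryba2 at 6.09 (3.96 to 9.71), Cryba4 at 5.37 (3.70 to 7.97), Crybb3 at 5.17 (3.13 to 8.92) and Crygd at 3.26 (1.70 to 6.57). The intervals of Cryaa and of Cryba4 do not overlap, so that these members were not in 1 ratio throughout. Bfsp1, Lgsn and Grifin had ratios of 6.17, 7.38 and 6.04 with wide intervals that include that of Cryaa. Cryab had a ratio of 1.82 (1.67 to 1.99) and Lenep of 1.23 (1.02 to 1.49), both apart from those of Cryaa and the β crystallins.

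**Figure D3:**
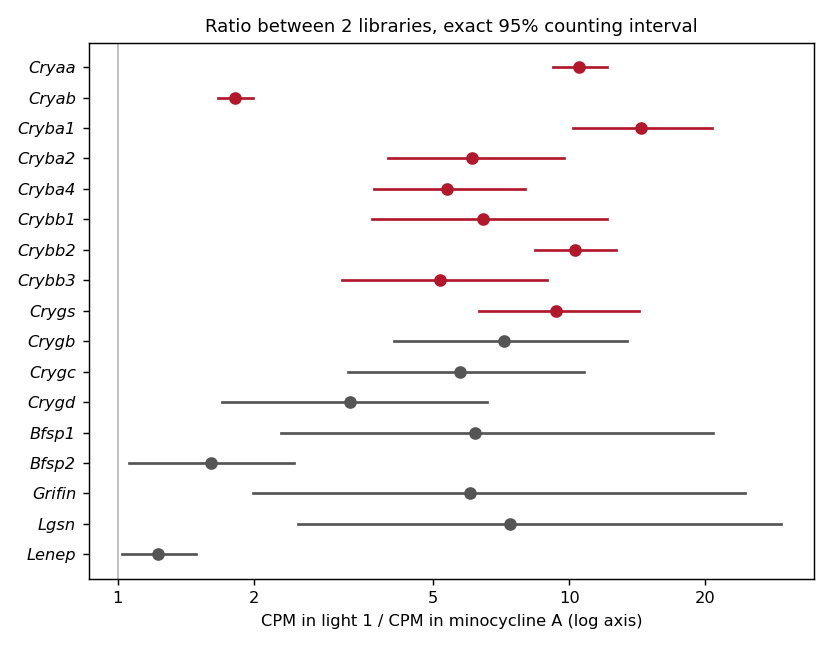
Ratio of CPM in light-exposed replicate 1 to minocycline A on a log axis, points with exact 95% counting intervals, crystallin members in red and other lens genes in grey. Cryab, Bfsp2 and Lenep lie between 1.23 and 1.82, whereas the other genes lie between 3.26 and 14.4.

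Markers of other tissues around the eye were read in the same libraries. The γ crystallins other than Crygs and Crygn summed to 1.96 CPM in minocycline A and 0 in minocycline B, and Cryaa was at 10.3 and 1.06 CPM, whereas the 13 lens fibre and lens epithelium genes summed to 13.0 and 17.3 CPM. The 11 corneal epithelium genes summed to 208 and 297 CPM, the 6 pigment cell genes to 306 and 1390 CPM, and the 6 smooth muscle genes to 65.8 and 327 CPM in minocycline A and B, respectively. In light-exposed replicate 1, where the crystallins were highest, the corneal list was at 7.65 CPM, the pigment cell list at 29.1 CPM and the smooth muscle list at 8.94 CPM. These lay within the range of the controls and light-exposed replicate 2, which was 2.68 to 17.3, 15.8 to 72.6 and 5.26 to 18.1 CPM. The part of adhering tissue in the crystallin values was not tested. In whole retina, fewer cells of a type and less RNA per cell cannot be told apart.

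**Figure D4:**
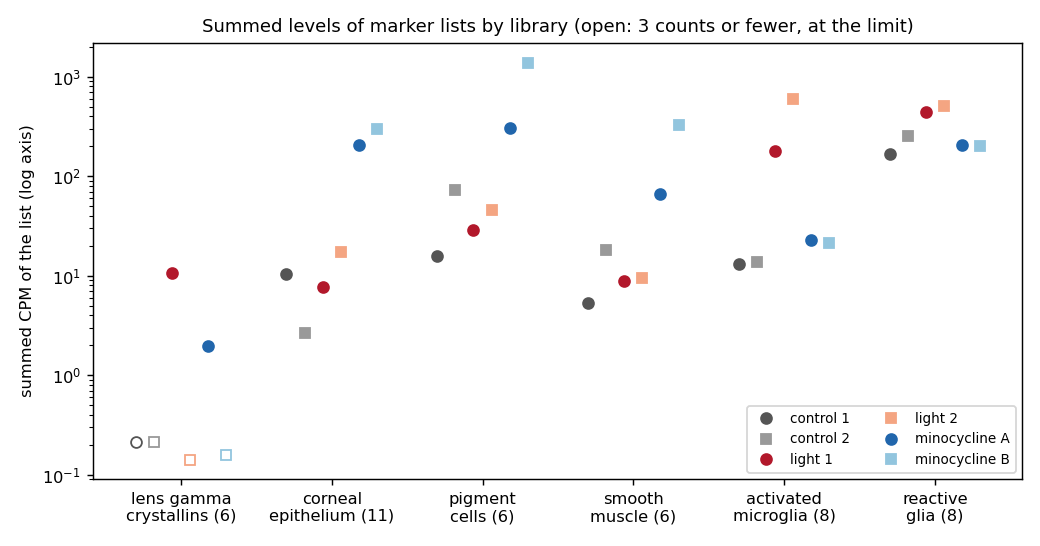
Summed CPM of 6 marker lists on a log axis, with 1 point per library and the number of genes of each list in brackets; open symbols mark 3 counts or fewer. The lens γ crystallins are detected only in light-exposed replicate 1 and minocycline A, whereas the corneal, pigment cell and smooth muscle lists are highest in minocycline B.

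The effect of light was tested with edgeR's quasi-likelihood test on all genes past a filter on low counts, with Benjamini-Hochberg adjustment over 14349 genes and a threshold of 0.05. Only 3 of the 10 members, Cryab, Crybb3 and Cryba4, passed the filter, because Cryaa, Cryba1, Cryba2, Crybb1, Crybb2 and Crygs reached it in 1 library alone and Crygn in none. Cryab and Crybb3 were higher after light, 2 of 3 tested members, where 7.52% of all tested genes were higher. No member was lower, where 3.80% of all tested genes were. Cryba4, with 0 and 2 counts in the controls, passed the filter through the light-exposed libraries alone, so that its direction was fixed by the filter.

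Cryab rose from 24.5 ± 6.52 CPM in control to 77.2 ± 9.59 CPM after light (SD, n = 2 each), a log2 fold change of 1.66 (standard error 0.20) with an adjusted p of 0.0056 in edgeR. Without light-exposed replicate 1, in which the lens genes were highest, its log2 fold change was 1.78 with an adjusted p of 1.3e-06 in edgeR, where the single light-exposed library left is assumed to vary like the controls. Over 15 alternative settings the log2 fold change lay between 1.40 and 1.95, and each adjusted p was under the threshold, the highest being 0.0303 in edgeR.

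Crybb3 rose from 0.848 ± 0.195 to 3.44 ± 1.5 CPM (SD, n = 2 each), a log2 fold change of 2.00 (standard error 0.47) with an adjusted p of 0.0251 in edgeR. Without light-exposed replicate 1 its log2 fold change was 1.48, and the call was lost (adjusted p 0.0894 in edgeR). The call was also lost without control 1 (log2 fold change 1.78, adjusted p 0.123 in edgeR) and without control 2 (2.25 and 0.13). Cryba4 was at 4.68 ± 5.28 CPM after light (SD, n = 2), at least 21.9-fold above the control limit, with an adjusted p of 0.144 in edgeR. In light-exposed replicate 2 alone, where Cryaa, Crybb2 and Cryba1 held 1 count or none, Cryba4 was at least 4.45-fold higher than this limit, with an adjusted p of 0.0292 in edgeR without replicate 1. There it entered the test through that 1 library, so that its call adds no support beyond these counts.

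With every library of both groups kept, the remaining members gave no call. Without a filter, Cryaa, Cryba1, Crybb2, Crygs, Cryba2 and Crybb1 had adjusted p-values of 0.476 to 0.656 in edgeR. When light-exposed replicate 2 was left out, Cryaa, Cryba1, Cryba2, Cryba4, Crybb1, Crybb2 and Crygs passed the filter through light-exposed replicate 1 alone. Their direction was then fixed by the filter, so that no count of calls is given for that fit. When replicate 1 was left out, Cryaa was not tested, with 1 count against 1 and 2 in the controls.

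Minocycline was compared with light alone over 14750 genes, of which 9 members were tested, all but Crygn. Their fitted log2 fold changes were all negative, with a median of -2.45 beside 0.01 over all tested genes. Without light-exposed replicate 1 the median was 2.77, with 6 of the 9 positive, so that neither sign describes the group. No member passed the test in either direction, where 0.0136% of all tested genes were higher and 0.0407% lower. By unadjusted p under 0.05 there were 2 of 9, Cryab and Crybb3, a share near the 21.1% of all tested genes, and DESeq2 without shrinkage called both lower.

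Cryab was at 41.3 ± 3.87 CPM with minocycline (SD, n = 2), a log2 fold change of -0.88 (standard error 0.15) relative to light without drug (adjusted p 0.0698 in edgeR). Without light-exposed replicate 1 it was -1.02, with an adjusted p of 0.0253 in edgeR, within a range of 0.000337 to 0.277 over 14 alternatives. Crybb3 was at 0.753 ± 0.166 CPM (SD, n = 2), a log2 fold change of -2.15 (standard error 0.47) with an adjusted p of 0.0804 in edgeR, and of -1.64 without light-exposed replicate 1 (adjusted p 0.151 in edgeR). For both genes each minocycline library lay below each light-exposed library. How many of all genes separate in this way was not counted, here or where other groups are said to lie apart.

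The direction of 6 members against light alone was set by 1 library. Cryaa had a log2 fold change of -3.22 with all libraries and 6.75 without light-exposed replicate 1, with adjusted p-values of 0.645 and 0.323 in edgeR. The sign likewise turned without that library for Cryba1, Cryba2, Crybb1, Crybb2 and Crygs, and Cryba4 moved from -2.29 to -0.02. The light-exposed library left held 0 to 2 counts of Cryaa, Cryba1, Cryba2, Crybb2 and Crygs, so that the fitted sizes depend on the prior count.

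Against control, 3 members were tested with minocycline over 14181 genes, Cryaa, Cryab and Crybb3. No member passed the test, where 0.162% of all tested genes were higher and 0% lower, and Cryaa and Cryab had an unadjusted p under 0.05, as did 7.01% of all tested genes. Cryaa, with 1 and 2 counts in the controls, passed the filter through the minocycline libraries alone, so that its direction was fixed by the filter and neither its p-values nor a call adds support beyond the counts. Cryab had a log2 fold change of 0.80 (standard error 0.21) with an adjusted p of 0.282 in edgeR, and both minocycline libraries lay above both controls. Over 14 alternatives its log2 fold change lay between 0.56 and 1.09 and its adjusted p in edgeR or DESeq2 between 0.0135, without minocycline A, and 1, without control 2, and 3 of the 14 were under the threshold. Crybb3 had a log2 fold change of -0.12 (standard error 0.47), and its libraries overlapped between the groups. Cryaa was at 5.69 ± 6.54 CPM (SD, n = 2), at least 26.7-fold above the control limit, with an adjusted p of 0.531 in edgeR and a call by DESeq2 without shrinkage (adjusted p 0.000129). The 3 comparisons share their libraries in pairs and are not independent.

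**Figure D5:**
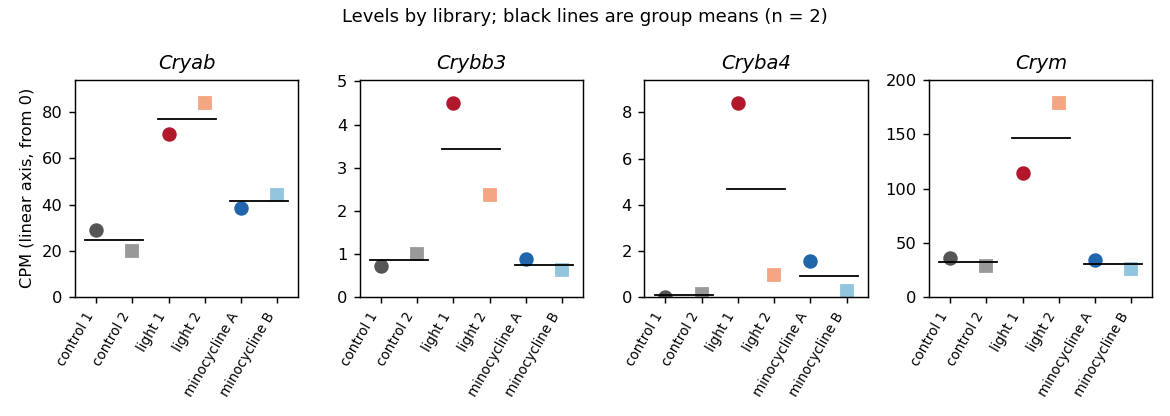
CPM by library on linear axes from 0 for Cryab, Crybb3, Cryba4 and Crym, with group means of 2 libraries as black lines. Both light-exposed libraries lie above the controls in each panel, and light-exposed replicate 1 is the higher for Crybb3 and Cryba4 and the lower for Cryab and Crym.

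Genes related to crystallins by name or fold were read for contrast. Of the 7 in the table, 6 were tested after light and 1 was higher, with a median log2 fold change of 0.53. This was Crym, a thyroid hormone binding protein that is no structural lens protein in the mouse, whose controls were at 32.3 ± 5.57 CPM, light-exposed retinas at 147 ± 45.9 CPM and minocycline retinas at 30.1 ± 5.73 CPM (SD, n = 2 each). Light gave it a log2 fold change of 2.19 (adjusted p 0.00627 in edgeR), and minocycline relative to light one of -2.27 (adjusted p 0.0638 in edgeR). Among the 8 genes listed by name as small heat shock genes, 3 were tested and none passed the threshold in any comparison in edgeR. Hspb6 had log2 fold changes of -0.39 after light and 0.49 with minocycline against light, Hspb11 of 0.23 and -0.08, and Hspb8 of 0.48 and 1.36. Hspb8 held 56 and 62 counts in the controls and 231 and 366 with minocycline, a log2 fold change of 1.86 (adjusted p 0.117 in edgeR). All 11 genes of the heat shock response were tested, none passed after light, and their median log2 fold change was -0.14, with Hsp90aa1 at -0.53 (adjusted p 0.0903 in edgeR) and Hsph1 at -0.07 (adjusted p 0.814 in edgeR). Bag3, a partner of the small heat shock proteins named after its value was seen, had a log2 fold change of 0.76 (adjusted p 0.167 in edgeR).

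Of the 10 transcription factors of the lens, Foxe3, Sox1 and Pitx3 held 0 to 2 counts per library and 7 were tested after light, with 0 higher, 1 lower (Meis1, log2 fold change -0.67, adjusted p 0.021 in edgeR) and a median log2 fold change of 0.34. Maf, one of the large Maf factors whose site letters are marked in the promoters, held 111 and 72 counts in the controls, 135 and 326 counts in light-exposed replicates 1 and 2, and 195 and 130 counts in minocycline A and B. It was highest in the light-exposed replicate that held 1 count of Cryaa, with a log2 fold change of 0.86 after light and an adjusted p of 0.153 in edgeR. Of the reactive glia genes 3 of 8 were higher after light, Gfap, Serpina3n and Lcn2, with a summed level of 444 and 505 CPM in the light-exposed replicates and 168 to 251 CPM in the other libraries. Of the Müller cell genes 2 of 8 were higher, and of the activated microglia genes 3 of 8, with summed levels of 179 and 601 CPM after light and 13.2 to 22.8 CPM elsewhere. Of the 10 rod genes 1 was lower after light and 0 were higher, and their median log2 fold change was -0.83 after light and 0.83 with minocycline against light, where 0 passed the test in edgeR. The part of these cells in the values of Cryab and Crybb3 was not tested.

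The genes outside the 10 members that were most like a member across the 6 libraries were sought by Pearson r of log2 CPM among 13975 genes tested in all comparisons. For Cryab these were Fam101b (r of 0.99), Mgat4b, Nod1, Serpinb9 and Fblim1, the last 4 at 0.988 to 0.989. For Crybb3, the only β-crystallin tested throughout, they were Kremen1, Akr1b8, BC026585, H2-M5, Frmd6, Sec13, Lcn2, Ovca2, Zfp235 and Tmem69, with r of 0.969 to 0.987. Lcn2, an iron-binding protein of reactive glia, held 78 and 76 counts in the controls, 993 and 790 counts after light, and 127 and 73 counts with minocycline, so that replicate 1 was the higher of the light-exposed libraries, as for Crybb3. Within the members, Crybb2 and Cryba1 had r of 0.991 and 0.987 with Cryaa. Outside them, among the genes tested in all comparisons, those most like Cryaa were Supt7l, Zc3h12c, Ecd, Znrd1 and Fam207a at 0.961 to 0.989. Supt7l held 507 to 955 counts and so moved far less than Cryaa. The lens genes Crygb, Crygc, Crygd, Bfsp1, Lgsn, Grifin and Mip were not tested in all comparisons and so could not be listed. These values describe 6 libraries that share their groups, and r takes no account of the size of a change.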

How the data were processed

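Retinal RNA of 6 libraries was analysed. The authors prepared stranded mRNA libraries, used RNA Express, with STAR and the mm10 genome, and deposited counts per gene. Their data statement calls these normalized DESeq2 counts, but they are whole numbers whose totals differ between libraries, and they were treated as raw. Versions, gene annotation and strand use are not given in the sources used here. No value column was left out (0 unused), and 4791 genes had 0 counts throughout.

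Each pair of groups had its own edgeR fit (version 4.0.16, R 4.3.3), with filterByExpr, TMM factors, a robust quasi-likelihood test and Benjamini-Hochberg adjustment over all tested genes. Standard errors are the fold change divided by the square root of F. Levels in log2 used a prior count of 2. A group at 3 counts or fewer in every library was set to 3 counts per library. Folds against it are lower bounds that leave out the counting error of the higher library. Coordinates and exon lengths came from GENCODE M21 (GRCm38), promoters from RefSeq. The fit was tested on simulated data.

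The members, lists and tests were chosen with earlier results of these data known. Named genes were all members, the lists of lens, crystallin-related, heat shock and cell type genes, neighbours within 10 kb, and the genes of most similar profile. List examples were those with the most counts, apart from Maf, Meis1, Crym, Gfap, Serpina3n, Bag3, striated muscle and single lens genes, chosen after their values were seen. Alternatives were DESeq2 1.42.0 without shrinkage, DESeq2 size factors, total library size, upper quartile, no filter, 10 counts in every library, no robust estimation, a joint fit of 6 libraries, each library left out, a replicate block, a prior count of 0.5 and other thresholds. Leaving out light-exposed replicate 1 together with minocycline A was added after seeing the data. No test for outlying samples can be made within groups of 2. The values of 1 lens gene are not reported here.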

Additional observations from a re-analysis of the deposited data

How the results depend on the processing

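Of the alternatives for single members, 166 kept the direction and side of the threshold, 20 passed it newly with the same sign, 4 lost it and 9 turned the sign, 1 of these also passing it. The count of members higher after light, 2, was 1 with a fold cutoff (log2 fold change of at least 2). It moved with some single libraries left out, and without light-exposed replicate 2 the direction of the added members was fixed by the filter. The count of members lower with minocycline against light, 0, was 2 with DESeq2, no filter, all 6 libraries in one fit and an adjusted p under 0.1, and 0 to 1 with 1 library left out. With light-exposed replicate 1 and minocycline A left out together it was 1, and 1 member, Cryaa, was higher, from 20 counts against 1. That fit compares 1 library with 1 and takes the spread from the 2 controls, so that these libraries and not the conditions are compared. The count higher with minocycline against control, 0, was 1 with DESeq2 and with no filter. It moved without minocycline A and without minocycline B. Without minocycline B, Cryaa, Cryba1, Cryba2, Cryba4, Crybb2 and Crygs could pass the filter only through minocycline A, so that their direction was fixed by the filter. Apart from the libraries left out, the cause was not tested.

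With minocycline against light, the ranges over single libraries left out were -5.63 to 6.75 for Cryaa, -6.08 to 7.26 for Cryba1, -5.81 to 3.54 for Cryba2, -2.94 to 0.51 for Crybb1, -5.29 to 8.79 for Crybb2 and -6.6 to 2.77 for Crygs. The fitted log2 fold changes were positive only without light-exposed replicate 1, where the light-exposed library left held 0 to 8 counts. Cryaa was at 4.31 when minocycline A was left out as well. With minocycline against control, Crybb3 ranged from -0.38 to 0.14, positive without control 2 (0.14) and without minocycline B (0.04). Cryba4 passed the threshold after light in 6 of 14 alternatives.

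With the replicate number as a block, 3 members were higher after light, with Cryba4 in addition, whose direction was fixed by the filter. The same-numbered libraries did not deviate together (r of -0.01 over 14349 genes), so they share only a number. No paired analysis was possible because of the shared header for minocycline against light or control. Depth limits Crygn, with 0 to 4 counts.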
